A study of Mus musculus with 8 samples.

Results

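The nuclear subunit genes of complex III, cytochrome c, complex IV and ATP synthase were followed in fasted white quadriceps of mice with and without Acot2 in muscle. Members were taken from the deposited expression table by symbol: names starting with Uqcr, Atp5, Cox4, Cox5, Cox6, Cox7 or Cox8, and Cyc1 and Cycs, without the 7 rows named as pseudogenes. This gave 45 of 54091 rows, of which 9 belong to complex III (Cyc1 included), 1 is cytochrome c, 18 belong to complex IV and 17 carry ATP synthase names. RNA was sequenced from male mice aged 11 to 14 weeks after a fast of 14 h, in a muscle portion of mostly fast glycolytic fibres. The 4 floxed controls (replicates 1 to 4) have the genotype Loxp/Loxp, and the 4 knockouts (replicates 5 to 8) carry CKM Cre, which removes the floxed Acot2 gene in muscle. CKM is the muscle creatine kinase promoter, so Cre acts in muscle fibres and not in the other cells of the tissue. Mice with Cre and no floxed allele were not analysed here, so loss of Acot2 and the presence of Cre cannot be told apart. The comparison asks how these genes differ when the muscle lacks the enzyme, a mitochondrial thioesterase that splits fatty acyl-CoA.

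Complex III takes electrons from ubiquinol and hands them to cytochrome c, a small mobile protein. Complex IV passes them on to oxygen, and both complexes pump protons out of the matrix. ATP synthase lets the protons flow back through its membrane ring and makes ATP in its catalytic head. Several complex IV subunits exist in a muscle and heart isoform (Cox6a2, Cox7a1, Cox8b) and a ubiquitous isoform (Cox6a1, Cox7a2, Cox8a), which come from separate genes. Nuclear respiratory factor 1 (NRF1), GA-binding protein (an ETS factor), estrogen-related receptors (ERR) and YY1 are known regulators of such genes.

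Promoter sequences of these genes were read from RefSeq (GRCm38.p6), in a window from 250 bases before to 50 bases after the start. Of the 45 members 35 matched, with 39 promoters; Atp5a1, Cox4i1, Cox4i2, Cox6a2, Cox6c, Cox8c, Cyc1, Uqcrb, Uqcrc2 and Uqcrq had no entry. The 250 bases before the start are shown for the matched isoform genes of complex IV and for the 3 genes of ATP synthase subunit c, because the results below turn on how these genes differ from their partners. Capitals mark matches, on either strand, to the NRF1 pattern (GCGC on both sides of any 2 bases), AAGGTCA (ERR), CCGGAAG (ETS), AAGATGGC (YY1) and CCAAT (NFY).
Cox6a1 (chr5:115348959-115349208, minus strand): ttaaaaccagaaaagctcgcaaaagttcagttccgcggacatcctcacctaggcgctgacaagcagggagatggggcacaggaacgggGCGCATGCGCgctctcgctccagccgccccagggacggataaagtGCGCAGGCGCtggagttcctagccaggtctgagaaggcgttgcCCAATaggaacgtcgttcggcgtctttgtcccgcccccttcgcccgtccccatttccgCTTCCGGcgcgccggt
Cox7a1 (chr7:30183921-30184170, plus strand): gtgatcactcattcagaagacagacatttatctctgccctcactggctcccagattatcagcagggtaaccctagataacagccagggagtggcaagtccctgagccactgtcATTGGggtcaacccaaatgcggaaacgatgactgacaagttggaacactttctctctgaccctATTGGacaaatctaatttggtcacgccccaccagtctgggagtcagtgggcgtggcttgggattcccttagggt
Cox7a2 (chr9:79759854-79760103, minus strand): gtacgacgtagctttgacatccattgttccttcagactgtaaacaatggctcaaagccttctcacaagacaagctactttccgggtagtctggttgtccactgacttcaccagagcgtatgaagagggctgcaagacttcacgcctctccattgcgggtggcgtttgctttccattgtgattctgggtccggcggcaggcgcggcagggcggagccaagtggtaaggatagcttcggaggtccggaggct
Cox8a (chr19:7217617-7217866, minus strand): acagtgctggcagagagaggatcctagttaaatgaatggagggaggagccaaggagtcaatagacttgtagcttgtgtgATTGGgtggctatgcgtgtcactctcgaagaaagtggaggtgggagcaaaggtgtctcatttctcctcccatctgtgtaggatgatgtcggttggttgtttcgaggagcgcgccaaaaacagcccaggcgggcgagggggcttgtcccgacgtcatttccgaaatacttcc
Cox8b (chr7:140900447-140900696, minus strand): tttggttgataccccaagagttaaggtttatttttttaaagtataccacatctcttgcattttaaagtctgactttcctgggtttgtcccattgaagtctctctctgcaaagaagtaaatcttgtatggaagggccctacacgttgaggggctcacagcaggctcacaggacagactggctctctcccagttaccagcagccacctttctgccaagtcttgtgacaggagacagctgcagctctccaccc
Atp5g1 (chr11:96075632-96075881, minus strand): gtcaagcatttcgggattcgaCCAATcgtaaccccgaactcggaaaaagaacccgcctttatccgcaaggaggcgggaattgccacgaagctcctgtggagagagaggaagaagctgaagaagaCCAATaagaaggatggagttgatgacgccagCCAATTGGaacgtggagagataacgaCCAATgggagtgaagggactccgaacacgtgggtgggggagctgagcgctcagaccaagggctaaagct
Atp5g2 (chr15:102671048-102671297, minus strand): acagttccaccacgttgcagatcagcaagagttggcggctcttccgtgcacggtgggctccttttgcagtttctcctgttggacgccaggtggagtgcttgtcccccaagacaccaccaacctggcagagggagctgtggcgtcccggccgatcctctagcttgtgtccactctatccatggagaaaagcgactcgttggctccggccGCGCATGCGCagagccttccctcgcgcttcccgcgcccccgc
Atp5g3 (chr2:73911327-73911576, minus strand): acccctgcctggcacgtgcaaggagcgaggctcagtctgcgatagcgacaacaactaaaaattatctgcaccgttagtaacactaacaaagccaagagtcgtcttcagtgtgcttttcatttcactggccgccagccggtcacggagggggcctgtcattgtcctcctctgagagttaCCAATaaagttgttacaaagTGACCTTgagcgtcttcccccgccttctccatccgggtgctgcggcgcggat
The ubiquitous Cox6a1 held 2 NRF1 matches, at -162 and -117 from the start, an ETS match at -16 and a CCAAT at -74, and within the bases shown the ubiquitous Cox8a held 1 CCAAT and Cox7a2 none of the 5 patterns. Of the muscle genes, Cox7a1 held 2 CCAAT matches and Cox8b none. Over the whole window, to 50 bases after the start, Cox8a also held 2 ETS matches, at -5 and 33. Cox7a2, Cox7a1 and Cox8b held no NRF1, ERR, ETS or YY1 match there. With so few genes and no entry for Cox6a2, the isoform classes were not compared. Among the subunit c genes, Atp5g1 held 5 CCAAT matches (2 of them overlapping), Atp5g2 a full NRF1 palindrome at -42, and Atp5g3 an ERR match at -52 and a CCAAT at -72. Past the bases shown, Atp5g3 also held an NRF1 match at 13.

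Over the whole 300-base window, the NRF1 pattern occurred in promoters of 8 of the 35 matched members (22.9%), against 7% of 27025 genes of every type in the same table. The full palindrome with AT as its middle bases, which is contained in that pattern, was present in 4 members (11.4%; Atp5g2, Atp5k, Uqcrc1 and Cox6a1) against 1.07% of all genes. CCGGAAG was found in 10 members (28.6%; 9.93% of all genes), AAGGTCA in 4 (11.4%; 5.38%), AAGATGGC in 4 (11.4%; 3.19%) and CCAAT in 20 (57.1%; 41.1%). All 4 ERR matches (Atp5e, Atp5g3, Atp5k, Atp5l) and all 4 YY1 matches (Atp5f1, Atp5j, Atp5j2, Atp5sl) were in genes with ATP synthase names. Such genes make up 16 of the 35 matched members. These are matches of letters and not measured binding.

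Reads on genes ranged from 28659630 to 40977865 per library. Values are given as normalized counts, which are read counts divided by the size factor of the library, and differences as knockout minus floxed control on the scale log2(normalized count + 1), with 4 mice per group. Acot2, the targeted gene, gave 1675, 3927, 2492 and 1530 normalized counts in the 4 control mice and 413, 312, 600 and 543 in the knockout mice, so every knockout lay below every control. The mean was 2406 ± 1099 in controls and 467 ± 130 in knockouts (SD, n = 4), which is 19.4% of the control level. The limma adjusted p was 0.087, and the exact two-sided permutation p was 0.0286, the smallest that 4 against 4 mice allow. Muscle fibre markers (Acta1, Ckm, Tnnt3, Tnni2, Tnnc2 and Myh4) were all detected, with a summed level from 4114840 to 4988910 normalized counts in controls and 3227740 to 5300010 in knockouts. Titin (Ttn), the giant spring protein of the sarcomere and the longest muscle transcript, took 11.8% to 14.9% of counts in the controls, 13.9% in knockout 5 and 8.34% to 9.22% in knockouts 6 to 8. Floxed control 4 and knockout 5, the libraries with most titin in their groups, stood apart from the rest of their groups in the subunit genes, so results are also given without them.

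Of the 45 members, 42 passed the filter of a mean of 10 normalized counts and were tested. The other 3 are isoforms known from testis. Cox7b2 and Cox8c had 0 reads in all 8 libraries, where a count of 0 allows up to 3 reads per library, and Cox6b2 had 0, 1, 2 and 0 reads in the controls and 1, 0, 1 and 0 in the knockouts. Just above the filter, Cox4i2 had a mean of 24.3 normalized counts, and just below it Cox6b2 had 0.598. The testis markers Prm1 and Tnp1 summed to at most 1.09 normalized counts in any library.

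No member passed the test between genotypes. With limma over 13141 genes, 0 of 42 members reached an adjusted p of 0.05, where 0% of all tested genes did, and the members' adjusted p ranged from 0.746 to 0.971. At an unadjusted p under 0.05 there were 9 members with higher values in the knockout, against 2.47% of all tested genes, and 0 with lower values, against 3.7%. With voom on recovered reads, 0 members passed the adjusted threshold. An unadjusted p under 0.05 was found for 10 members and for 756 of all 13141 tested genes. The knockout value was above the control value in 39 of 42 members, against 50.6% of all tested genes, and the median difference was 0.25 against 0.0030 over all tested genes. In 35 of the 42, knockouts 6, 7 and 8 all lay above every floxed control, which held for 7.9% of all tested genes. No member had all 4 knockouts above every control (1.13% of all tested genes) or below (1.62%), and knockout 5 lay above every control in none of the 42. Together the 45 genes took 0.741% ± 0.101 of normalized counts in controls and 0.916% ± 0.151 in knockouts (SD, n = 4), with 0.700% in knockout 5 and 0.954% to 1.05% in knockouts 6 to 8. The members come from the same 8 libraries and share their spread, so their counts are not independent of each other.

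**Figure D1:**
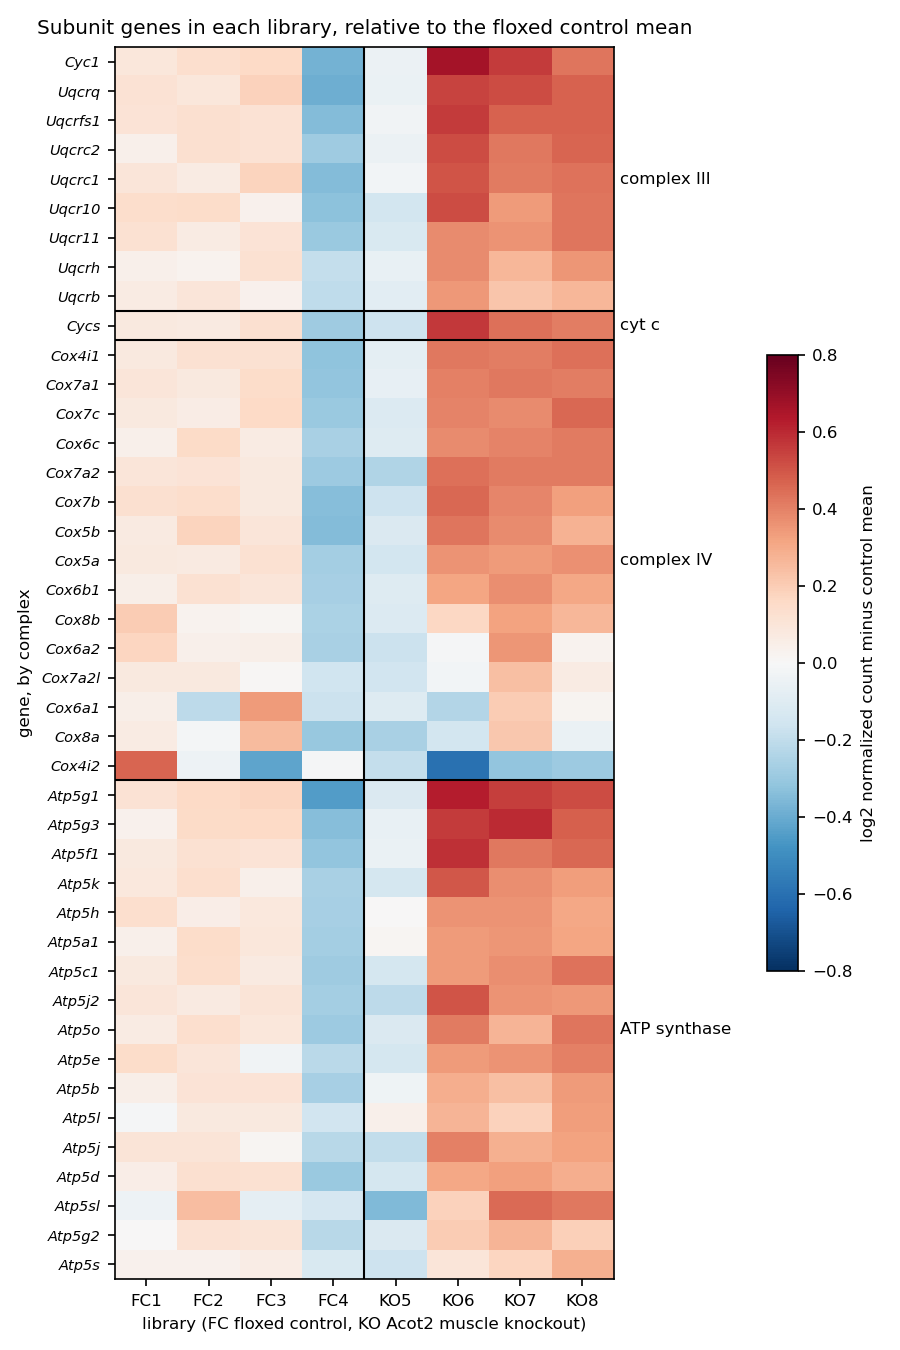
Level of each of the 42 tested subunit genes (rows, grouped by complex) in the 8 libraries (columns: FC1 to FC4 floxed controls, KO5 to KO8 Acot2 muscle knockouts). Colour gives the log2 normalized count minus the mean of the 4 controls; most rows are lowest in FC4 and highest in KO6, KO7 or KO8, while KO5 lies above every control in no row.

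The lowest library of each group was nearly always the same from gene to gene, while the highest varied. Floxed control 4 was the lowest control in 40 of 42 members (28.1% of all tested genes) and knockout 5 the lowest knockout in 40 of 42 (30% of all tested genes). Both held together in 40 members, with Cox6a1 and Cox4i2 as the exceptions, against 15.7% of all tested genes. The highest library was knockout 6 in 17 members, knockout 7 in 11 and knockout 8 in 11, and a floxed control in 3 (Cox8a, Cox6a1 and Cox4i2). Leaving out knockout 5 raised the number of members with an unadjusted p under 0.05 from 9 to 35 of 42. Over all 13141 tested genes that number went from 810 to 2200. Leaving out both floxed control 4 and knockout 5 gave 33 members and 1509 of all tested genes. The number of members was 0 without floxed control 4, without knockout 6, without knockout 7 and without knockout 8. Over all tested genes, these fits gave 367, 422, 658 and 456. The 6 mice numbered 3204 to 3210 gave 0 members and 480 of all tested genes. Among the genes given by library, leaving out floxed control 4 made the difference over 1.5 times smaller in Atp5b (0.12), Atp5g1 (0.25), Atp5g2 (0.061), Cox4i1 (0.19), Cox7a1 (0.19), Cox7a2 (0.16), Cox8b (0.076), Uqcr10 (0.18) and Uqcrb (0.12). Leaving out knockout 5 made it over 1.5 times larger in Atp5e (0.37), Atp5g2 (0.22), Cox6a2 (0.12), Cox7a2 (0.42), Cox8b (0.25), Cycs (0.47) and Uqcr10 (0.43). In none of these settings did a member reach an adjusted p of 0.05. Bulk tissue RNA cannot tell a change in the number of fibres or other cells of a type from a change in RNA per cell.

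**Figure D2:**
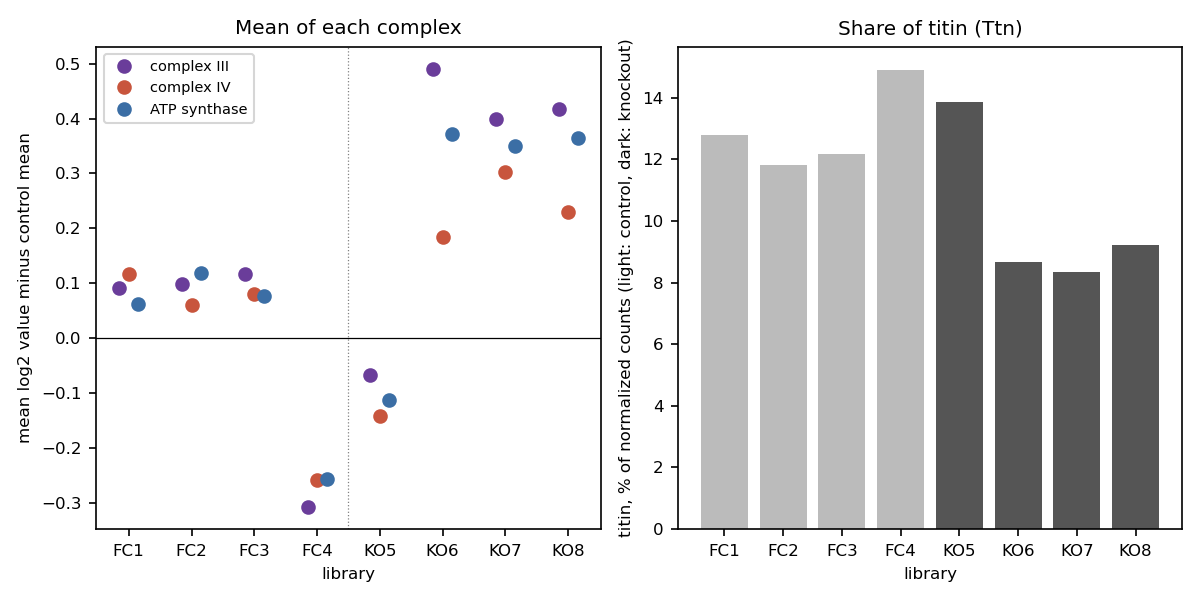
Left, mean log2 value of the tested genes of complex III (9), complex IV (15) and ATP synthase (17) in each library, minus the mean of the 4 floxed controls. Right, titin as a percentage of normalized counts, with bars from 0. FC4 is lowest in all 3 complexes, KO6 to KO8 lie highest, and the same 3 libraries have the least titin, 8.34% to 9.22%.

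Complex III genes had the largest median difference of the 3 complexes. All 9 were higher in the knockout mean, from 0.19 for Uqcrb to 0.40 for Cyc1, with a median of 0.33. In all 9, knockouts 6 to 8 lay above every floxed control. The mean log2 value of the 9 genes was 12.38, 12.39, 12.41 and 11.98 in controls 1 to 4 and 12.22, 12.78, 12.69 and 12.70 in knockouts 5 to 8. The median was 0.22 without floxed control 4, 0.45 without knockout 5 and 0.34 without both, so its size depended on these 2 libraries while its sign did not.

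Cyc1 encodes cytochrome c1, the haem subunit that passes electrons to cytochrome c. It had 4274, 4401, 4485 and 3088 normalized counts in controls 1 to 4 and 3896, 6372, 5929 and 5409 in knockouts 5 to 8. The means were 4062 ± 655 and 5401 ± 1078 (SD, n = 4). Knockout 5 lay within the control range and the other 3 above it, and the difference was 0.40 (SE 0.162, limma adjusted p = 0.746). Uqcrfs1 encodes the Rieske iron-sulfur protein, which takes the first electron from ubiquinol. Its levels were 8195, 8311, 8227 and 5980 normalized counts in the controls and 7463, 11201, 10560 and 10558 in the knockouts. Controls 1 to 3 lay close together with control 4 below them, and the difference between genotypes was 0.37 (SE 0.146, limma adjusted p = 0.746).

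The core proteins, which face the matrix and derive from a processing peptidase, had similar differences: Uqcrc1 differed by 0.33 (SE 0.142) and Uqcrc2 by 0.34 (SE 0.138). Among the small accessory subunits Uqcrq differed by 0.37 (SE 0.157), the hinge protein gene Uqcrh by 0.23 (SE 0.11) and Uqcr11 by 0.26 (SE 0.136). Uqcrb and Uqcr10 had the highest levels per length in complex III, at 10762 and 9037 normalized counts per kb of transcript. Uqcrb had 5602, 5741, 5500 and 4662 normalized counts in the controls and 5052, 6801, 6250 and 6455 in the knockouts. Its difference of 0.19 (SE 0.107) was the smallest of the complex. Uqcr10 had 3858, 3874, 3580 and 2781 in the controls and 3148, 5011, 4431 and 4695 in the knockouts, with a difference of 0.29 (SE 0.152). The same 3 knockouts were high in both genes, and the groups overlapped through knockout 5.

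Cycs, the somatic cytochrome c gene, had the same low libraries as the complex III genes. Normalized counts were 5017, 5003, 5193 and 3907 in the controls and 4234, 7024, 6460 and 6305 in the knockouts. The difference was 0.31 (SE 0.153, limma adjusted p = 0.746), with knockout 5 below controls 1 to 3. Its testis counterpart Cyct had 0 counts in every library.

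**Figure D3:**
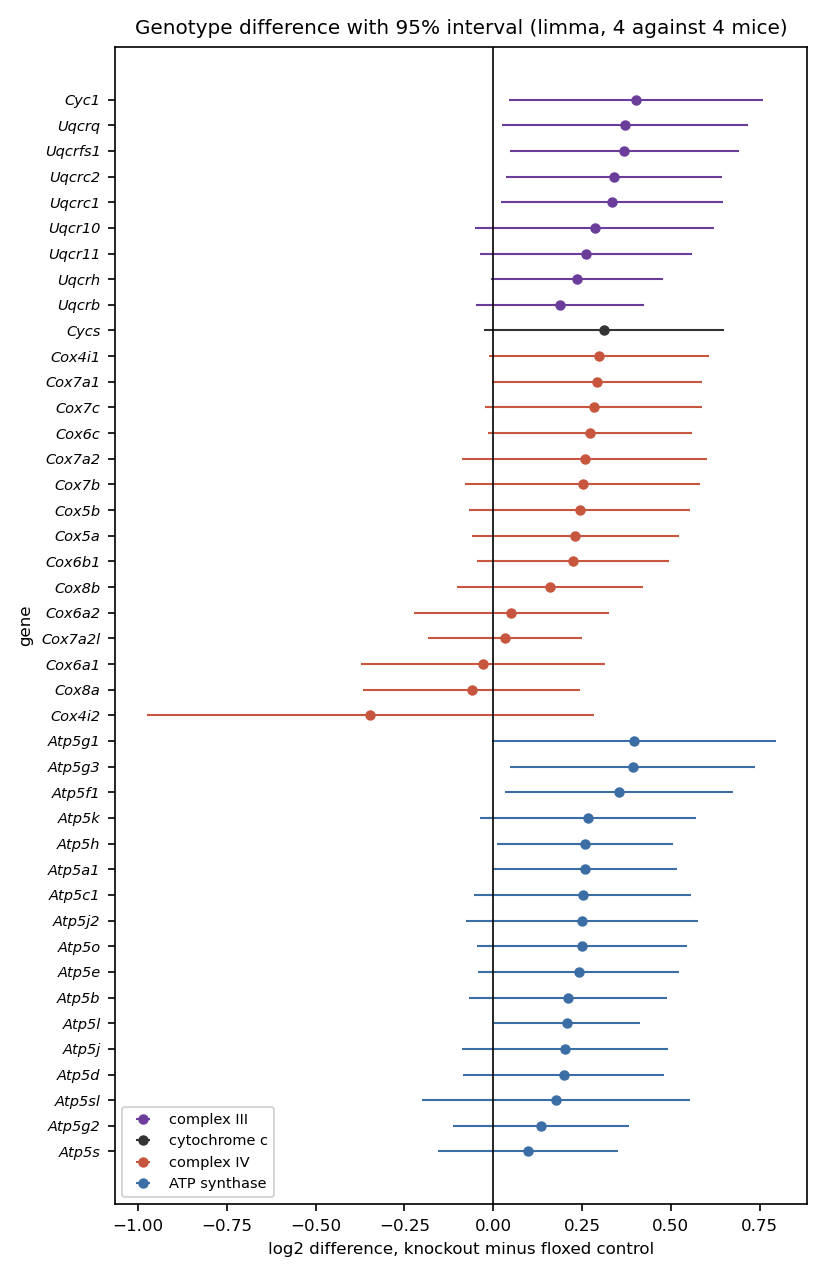
Log2 difference between the genotypes for each tested member, knockout minus floxed control, with the 95% interval of the limma fit (4 mice per group), coloured by complex. Complex III and ATP synthase genes all lie to the right of 0, and the intervals of 9 genes, 5 of complex III and 4 of ATP synthase, lie above it.

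Complex IV was the most mixed. Of its 15 tested genes 12 were higher in the knockout mean and 3 lower, from -0.35 for Cox4i2 to 0.30 for Cox4i1, with a median of 0.23. It contains 9 genes with an expressed partner isoform and 6 without. The 6 without (Cox5a, Cox5b, Cox6b1, Cox6c, Cox7b and Cox7c) lay close together, from 0.22 to 0.28. The 9 with a partner spanned the whole range, with a median of 0.051 and 6 of 9 higher. This division was made after the values were seen and carries no test. The complex IV median was 0.14 without floxed control 4, 0.36 without knockout 5 and 0.25 without both.

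Cox4i1 and Cox6c had the highest levels per length in complex IV, at 15599 and 14318 normalized counts per kb of the shortest principal transcript. With its longest one, Cox6c stood at 9759 per kb, below Cox8b, Cox5a, Cox6a2 and Cox7a1, so its rank depends on the transcript. Cox4i1 encodes the common isoform of subunit IV, the largest nuclear subunit and a site of ATP inhibition. Its counts were 10894, 11259, 11239 and 8257 in the controls and 9769, 13848, 13716 and 13989 in the knockouts, a difference of 0.30 (SE 0.14, limma adjusted p = 0.746). Cox4i2, the isoform best known from lung and low oxygen, had 37.5, 26.1, 19.8 and 26.7 normalized counts in the controls and 23.4, 17.4, 21.4 and 21.8 in the knockouts. The groups overlapped, the difference was -0.35 (SE 0.286, 95% interval from -0.98 to 0.28), and 16 to 35 reads per library stood behind each value. It was -0.19 without floxed control 1, the highest library, and -0.51 in mice 3204 to 3210. Cox6c had 6651, 7193, 6762 and 5416 in the controls and 6035, 8414, 8518 and 8629 in the knockouts, a difference of 0.27 (SE 0.13).

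The muscle isoforms of subunits VIa, VIIa and VIII were all more abundant than their ubiquitous partners, and to unequal degrees. Per kb of transcript, Cox6a2 was 32.5-fold above Cox6a1, Cox8b 13.4-fold above Cox8a and Cox7a1 2.86-fold above Cox7a2, over the 8 libraries. Cox6a2, Cox7a1 and Cox8b were close to each other at 11791, 11309 and 12636 normalized counts per kb, while Cox6a1, Cox8a and Cox7a2 stood at 363, 941 and 3954. In GRCm38, Cox6a2 lies on chromosome 7 from 128205435 to 128206387, Cox8b on chromosome 7 from 140898945 to 140900446 and Cox7a1 on chromosome 7 from 30184144 to 30186078. Their partners lie on chromosome 5 (Cox6a1, 115345642 to 115348981), chromosome 19 (Cox8a, 7215153 to 7217616) and chromosome 9 (Cox7a2, 79755361 to 79759878).

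Subunit VIIa was the pair in which both isoforms had higher values in the knockout. Cox7a1 had 4238, 4175, 4378 and 3180 normalized counts in the controls and 3783, 5229, 5304 and 5268 in the knockouts, a difference of 0.29 (SE 0.134). Cox7a2 had 2505, 2532, 2476 and 1918 in the controls and 1980, 3184, 3120 and 3128 in the knockouts, a difference of 0.26 (SE 0.156). Knockouts 6 to 8 lay above every control in both genes. The log2 ratio of Cox7a1 over Cox7a2 was 0.76, 0.72, 0.82 and 0.73 in the controls and 0.93, 0.72, 0.77 and 0.75 in the knockouts, with means of 0.76 ± 0.046 and 0.79 ± 0.097 (SD, n = 4). It differed by 0.034 (95% interval from -0.097 to 0.16; exact two-sided permutation p = 0.657, 0.657 adjusted over the 3 pairs), and by -0.013 without knockout 5.

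Neither isoform of subunit VIa showed that pattern. Cox6a2 had 8804, 8055, 8075 and 6526 normalized counts in the controls and 6947, 7771, 10005 and 7960 in the knockouts. Only knockout 7 lay above every control, and the difference was 0.051 (SE 0.125, limma adjusted p = 0.929), turning to -0.036 without floxed control 4 and -0.051 without knockout 7. Cox6a1 had 214, 179, 263 and 184 in the controls and 193, 176, 239 and 211 in the knockouts, a difference of -0.029 (SE 0.155), which was 0.012 when every library was set to the same total. The log2 ratio of Cox6a2 over Cox6a1 was 5.35, 5.48, 4.94 and 5.14 in the controls and 5.16, 5.45, 5.38 and 5.23 in the knockouts, with means of 5.23 ± 0.24 and 5.31 ± 0.13 (SD, n = 4). The groups overlapped and differed by 0.079 (95% interval from -0.26 to 0.41; exact two-sided permutation p = 0.6, 0.657 adjusted), and by -0.018 without floxed control 3.

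In subunit VIII the isoforms had differences of opposite sign. Cox8b had 4925, 4357, 4323 and 3582 normalized counts in the controls and 3950, 4791, 5340 and 5124 in the knockouts, a difference of 0.16 (SE 0.118, limma adjusted p = 0.776). It was 0.076 without floxed control 4, 0.25 without knockout 5, 0.11 without knockout 7 and 0.17 without both floxed control 4 and knockout 5. Cox8a had 548, 519, 623 and 425 in the controls and 438, 473, 609 and 505 in the knockouts, a difference of -0.060 (SE 0.138), which was 0.0052 without knockout 5. The log2 ratio of Cox8b over Cox8a was 3.17, 3.07, 2.79 and 3.07 in the controls and 3.17, 3.34, 3.13 and 3.34 in the knockouts, with means of 3.02 ± 0.16 and 3.24 ± 0.11 (SD, n = 4). It differed by 0.22 (95% interval from -0.019 to 0.46; exact two-sided permutation p = 0.0571, 0.171 adjusted), with 3 of 4 knockouts above every control and floxed control 3 lowest. The ratio differed by 0.14 without floxed control 3 (exact permutation p = 0.143, 0.429 adjusted) and by 0.11 in mice 3204 to 3210 (exact permutation p = 0.2, 0.6 adjusted). Over the leave-one-out fits it ranged from 0.14 to 0.27, and over all alternatives the adjusted p ranged from 0.0857 to 0.6. No pair passed an adjusted p of 0.05, and the intervals include differences of up to 0.46 for the Cox8b ratio and 0.41 for the Cox6a2 ratio.

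**Figure D4:**
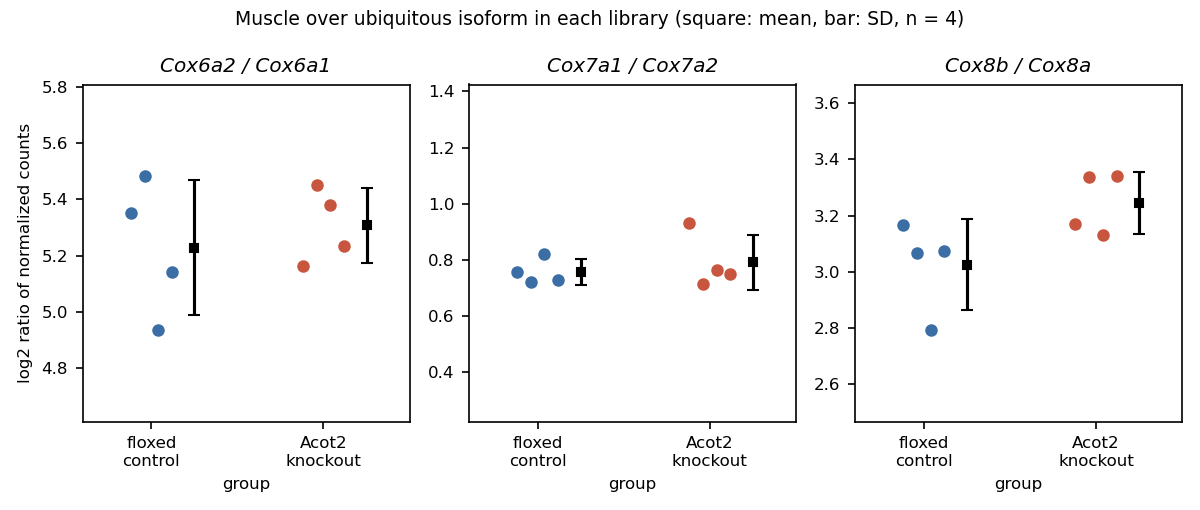
Log2 ratio of normalized counts of the muscle isoform over the ubiquitous isoform in each library (points), with the mean and SD of 4 mice (square and bar). Each panel has its own axis, and all span the same width on the log2 scale; the groups overlap in all 3 pairs, and the mean shift is 0.079, 0.034 and 0.22 from left to right.

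The 3 genes that departed most from the other members were isoforms of complex IV, followed by genes of all 3 complexes. For each gene, the log2 value was set against the mean of the other 41 tested members in the same library. The range of that deviation over the 8 libraries was 0.070 for Cox5a, 0.072 for Cox6b1 and 0.073 for Atp5d, the 3 most uniform members. The largest ranges were 1.34 for Cox4i2, 0.84 for Cox6a1, 0.66 for Cox8a, 0.48 for Atp5g1 and 0.48 for Cox7a2l. Cox7a2l is a relative of subunit VIIa that joins complexes III and IV in supercomplexes. Cyc1 (0.45) and Cox6a2 (0.44) came next, while Cox8b had 0.29. Cox4i2 had only 16 to 35 reads per library, and the part of counting noise in its range was not tested. In knockout 6, Cox4i2, Cox6a1, Cox8a, Cox7a2l, Cox6a2 and Cox8b each had their lowest deviation, at -0.66, -0.45, -0.35, -0.27, -0.26 and -0.14. In knockout 8 the same genes lay at -0.34, -0.19, -0.25, -0.17, -0.22 and -0.035, and in floxed control 4 at 0.56, 0.23, 0.11, 0.21, 0.097 and 0.049. Atp5s also had its lowest deviation in knockout 6 (-0.18), with 0.018 in knockout 8 and 0.22 in floxed control 4. The mean log2 value of all tested members was 11.47 in floxed control 4, 12.07 in knockout 6 and 12.06 in knockout 8. A gene that does not follow this shared shift therefore gets a positive deviation in floxed control 4 and negative ones in knockouts 6 and 8. The opposite signs follow largely from the subtraction and are not a separate result. Actc1, the actin of heart and developing muscle, had 12715, 9435, 11146 and 39544 normalized counts in controls 1 to 4. It had 28099, 115833, 5503 and 16339 in knockouts 5 to 8, highest in knockout 6. A link between its level and the deviations was not tested.

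ATP synthase genes were uniformly higher in the knockout mean. All 17 had a positive difference, from 0.097 for Atp5s to 0.40 for Atp5g1, with a median of 0.25, and in 16 of 17 knockouts 6 to 8 lay above every control. The mean log2 value was 11.96, 12.01, 11.97 and 11.64 in controls 1 to 4 and 11.78, 12.27, 12.24 and 12.26 in knockouts 5 to 8. The median was 0.16 without floxed control 4, 0.35 without knockout 5 and 0.28 without both.

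In the catalytic head, Atp5b encodes the beta subunit that carries the catalytic sites, and was the most abundant member per length at 29908 normalized counts per kb. Atp5b had 54512, 57059, 57028 and 44063 normalized counts in the controls and 51560, 64794, 62526 and 66884 in the knockouts, a difference of 0.21 (SE 0.126, limma adjusted p = 0.749). Atp5e, the epsilon subunit of the central stalk, was second within ATP synthase at 12440 per kb. It had 5283, 5099, 4666 and 4096 in the controls and 4323, 6029, 6117 and 6286 in the knockouts, a difference of 0.24 (SE 0.129). In both, floxed control 4 was lowest of all and knockout 5 sat among the controls. The alpha, gamma and delta subunit genes Atp5a1, Atp5c1 and Atp5d differed by 0.26, 0.25 and 0.20.

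Atp5g1 and Atp5g3 of the membrane ring, given below, and Atp5f1 of the outer stalk had the largest differences of ATP synthase. The other membrane and stalk genes lay near the genes of the head or below them. Atp5f1, the b subunit of the outer stalk, had 11250, 11575, 11491 and 8563 normalized counts in the controls and 10257, 15947, 14284 and 14615 in the knockouts, a difference of 0.35 (SE 0.146, limma adjusted p = 0.746). The other stalk genes Atp5o, Atp5h and Atp5j differed by 0.25, 0.26 and 0.20, and the membrane genes Atp5j2, Atp5k and Atp5l by 0.25, 0.27 and 0.21. Atp5s, a coupling factor, had the lowest difference under an ATP synthase name (0.097, SE 0.115). Atp5sl differed by 0.18 (SE 0.171) and is also named Dmac2 and known as an assembly protein of complex I. These 2 genes were also the least abundant per length, at 255 and 240 normalized counts per kb, and are not core subunits.

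Subunit c forms the rotating ring and is made from 3 genes that share their mature protein and differ in the import peptide. Atp5g1 had 5988, 6186, 6229 and 4057 normalized counts in the controls and 5097, 8532, 8124 and 7947 in the knockouts, a difference of 0.40 (SE 0.181). Atp5g3 had 5697, 6188, 6208 and 4398 in the controls and 5336, 8191, 8415 and 7760 in the knockouts, a difference of 0.39 (SE 0.157, limma adjusted p = 0.746). Atp5g2 had 771, 835, 829 and 660 in the controls and 709, 886, 929 and 877 in the knockouts, a difference of 0.13 (SE 0.113). In all 3 genes knockouts 6 to 8 lay above every control. Atp5g2 held 6.19% to 7.24% of the counts of the 3 genes in controls and 5.03% to 6.37% in knockouts, while Atp5g1 held 44.5% to 48.5% and Atp5g3 45.7% to 48.3% over the 8 libraries. Knockouts 6 to 8 had the lowest Atp5g2 shares, and knockout 5 lay among the controls. The principal transcripts of Atp5g1 are 596 to 4715 bases long, so its level per length is between 10940 and 1383 normalized counts per kb and is not ranked.

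Set against each other within a library, the complexes had shifts of different size. The mean log2 value of complex III minus that of complex IV was 1.07, 1.14, 1.14 and 1.05 in the controls and 1.17, 1.41, 1.20 and 1.29 in the knockouts, so all 4 knockouts lay above every control. Against the 6 complex IV genes without a partner isoform, the same quantity was -0.026, -0.064, -0.028 and -0.053 in the controls and 0.013, 0.057, -0.021 and 0.014 in the knockouts, a shift of 0.059 where all complex IV genes gave 0.17. Complex III minus ATP synthase was 0.424, 0.374, 0.436 and 0.344 in the controls and 0.440, 0.513, 0.442 and 0.446 in the knockouts, a shift of 0.066. All 4 knockouts again lay above every control, knockout 5 only narrowly above floxed control 3. ATP synthase minus complex IV shifted by 0.10, with 2 of 4 above. These means are descriptions and carry no test.

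Other genes that build the 3 complexes had mostly higher values in the knockout too, and none passed the test. The list, set with earlier results known, held 42 genes: subunits from the mitochondrial genome, further nuclear subunits (Ndufa4, Usmg5 and the testis cytochrome c Cyct), an inhibitor, and assembly and associated factors. Of the 39 tested, 35 were higher and 4 lower, 0 had an adjusted p under 0.05 (limma; 0% of all tested genes), and the median difference was 0.17. By complex the median was 0.28 for 7 genes of complex III, 0.15 for 26 of complex IV and 0.23 for 6 of ATP synthase. The smallest p values were those of the complex III assembly gene Uqcc1 (0.31, SE 0.091), Taco1, a translation activator of the mitochondrial COX1 transcript (0.35, SE 0.135), Tmem70, an assembly factor of ATP synthase (0.37, SE 0.144), and Coa7, an assembly factor of complex IV (0.31, SE 0.134). The mitochondrial transcripts COX1 and CYTB differed by 0.21 (SE 0.217) and 0.13 (SE 0.137), and the ATP synthase inhibitor gene Atpif1 by -0.034 (SE 0.16). COX1 had 518720 to 859774 normalized counts per library. COX2 had only 48.0 to 95.4, COX3 86.2 to 206 and ATP6 28.4 to 80.6. These 3 mitochondrial genes are among the 35 higher ones and enter the medians. Why so few of their reads were counted was not tested.

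Fibre and cell type markers varied between libraries beside these values. Myh1, the myosin of intermediate fast fibres, ranged from 49241 to 160175 normalized counts in controls, lowest in floxed control 4, and from 98122 to 203391 in knockouts. Myh2, the myosin of fast oxidative fibres, had 18567, 4421, 18357 and 4678 in controls 1 to 4. It had 7087, 4005, 59055 and 4102 in knockouts 5 to 8, a difference of -0.009 (SE 0.809). Its lowest libraries were thus knockouts 6 and 8, which were high in the subunit genes. The 6 slow fibre genes were all detected, with none at 0 in every library, and all 6 were higher in the knockout mean, with a median difference of 1.26. Their SEs ran from 0.775 (Myl3) to 1.21 (Myl2), and Tnnc1 differed by 0.17 (SE 0.801). Single libraries weighed heavily. Tnni1 had 293 normalized counts in knockout 6 and 4.84 to 47.5 in the other knockouts. Myl2 had 441 in knockout 7 and 2.42 to 37.9 in the others. They summed to 45.3 to 237 normalized counts in controls and 79.9 to 835 in knockouts, with 488 in knockout 5, 727 in knockout 6, 835 in knockout 7 and 79.9 in knockout 8. The largest difference was that of Myl3, the slow ventricular myosin light chain (2.89, SE 0.775, limma adjusted p = 0.746). Knockout 5, low in the subunit genes, was thus above every control in this sum, of which Myh7 gave 303. It was also above every control in Myl3, while its Tnnt1, Tnni1, Tnnc1 and Myl2 values lay within the control range. Knockout 8, high in the subunit genes, had a sum within the control range. Its Myl3 value lay above that of every control (43.6), and its Tnnc1 and Myl2 values below (2.42 each). Cox7a1 and Cox8b are also abundant in brown fat. Of the 3 brown fat markers of the list, Elovl3 had 0 counts in every library. Ucp1 had 0 counts in 7 libraries and 1.86 normalized counts in knockout 7. Cidea was detected, with 16.0 to 51.1 in controls and 21.8 to 78.2 in knockouts, a difference of 0.39 (SE 0.443). The 3 markers summed to 16.0 to 51.1 in controls and 21.8 to 80.1 in knockouts. The 5 macrophage markers were higher in 5 of 5, with sums of 1022 to 1827 in controls and 1652 to 2987 in knockouts. The 6 endothelial markers summed to 5156 to 6401 and 5752 to 7548, and the 5 adipocyte markers to 85.8 to 818 and 185 to 586. The part of fibre makeup, other cells or the titin share in the subunit values was not tested.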

How the data were processed

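The authors deposited log2 values for 54091 gene rows and 8 libraries, 1 per mouse; tools listed in the submitters' processing notes, without versions, are DESeq2, STAR, HTSeq, cutadapt and FastQC, with GRCm38 as the genome. For annotation, strand setting and reads shared with pseudogenes, the sources used here give nothing. From the values, each deposited log2 value is log2(n + 1), with n the read count over 1 size factor per library, unscaled for length; below a ceiling of 200 reads, 100% of values gave whole reads (tolerance 0.1). Columns were matched to libraries by mouse number, and mice were taken as separate animals.

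Genotype was tested with limma 3.58.1 (R 4.3.3; lmFit, eBayes with trend) on 13141 genes with a mean of at least 10 normalized counts, with Benjamini-Hochberg adjustment over all of them, after a test of the script on simulated data. Isoform ratios were compared with exact permutation tests over 70 assignments. Levels per kb use the shortest principal coding transcript of GENCODE M21. The members and lists were chosen with earlier results of these data known. Genes given with every library are the isoform pairs, Cyc1, Cycs, the subunit c genes, Cox4i1 and Cox4i2, and per complex the 2 most abundant per kb and the 2 with the smallest p; Actc1, Cox7a2l and the genes given by difference alone were named after their values were seen. Alternatives covered pseudocount, filter, scaling, fit, mouse number range and single libraries; leaving out floxed control 4 and knockout 5 together was added after the data were seen.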

Additional observations from a re-analysis of the deposited data

Results flagged for a closer look

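In 14 of 48 groups of 4 libraries examined, 1 library lay far from the other 3, by a gap that took up most of the group's range; chance alone gives about 1 in 20 groups. All 14 concern the same libraries: floxed control 4 was the low one in 8 and knockout 5 in 6, and the genes share these libraries, so the cases are not independent. Floxed control 4 was low for Atp5f1 (8563 normalized counts against 11250 to 11575 in the other controls), Atp5g1 (4057), Cyc1 (3088), Uqcrfs1 (5980), Cox4i1 (8257), Cox7a1 (3180), Cox7a2 (1918) and Cycs (3907). Knockout 5 was low for Atp5e (4323 normalized counts against 6029 to 6286 in the other knockouts), Atp5g1 (5097), Cox4i1 (9769), Cox6c (6035), Cox7a1 (3783) and Cox7a2 (1980).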

How the results depend on the processing

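In all 20 alternatives the median differences of complex III, complex IV and ATP synthase stayed above 0. They ranged from 0.22 to 0.45, 0.14 to 0.36 and 0.16 to 0.35, in each case from the fit without floxed control 4 to that without knockout 5. No member was called in any alternative, and over all genes 1 gene was called without the filter on low values (0 otherwise). Setting every library to the same total shifted the median of all genes to 0.044. Acot2 differed by -2.30 with mouse number range as a stratum (exact permutation p = 0.05), by -2.34 in mice numbered 3204 to 3210 alone (p = 0.1) and by -2.44 without floxed control 4 and knockout 5 (p = 0.1), each the smallest p its design allows. Ratios near 0 changed sign: Cox6a2 over Cox6a1 ranged from -0.018 (without floxed control 3) to 0.16 and Cox7a1 over Cox7a2 from -0.013 (without knockout 5) to 0.059 when single libraries were left out, the latter being -0.023 without both floxed control 4 and knockout 5. The difference of Cox6a1 was 0.012 at equal totals, 0.068 in mice 3204 to 3210, 0.039 without knockout 6 and, with single libraries left out, -0.11 to 0.084 (without floxed control 3). That of Cox6a2 ranged from -0.051 (without knockout 7) to 0.12, and was -0.036 without floxed control 4. That of Cox8a was 0.021 in mice 3204 to 3210 and ranged from -0.16 to 0.023 (without floxed control 3), with 0.0052 without knockout 5. The cause of these changes was not tested. No paired analysis was possible because replicate numbers run over the series and are not shared between groups. Depth limits Cox4i2, with 16 to 35 reads per library.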

Other observations

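Of 9 tested genes of factors that control respiratory genes, 6 were higher in the knockout mean, 3 were lower, and none was called by limma. Esrra, the estrogen-related receptor alpha gene, had 1174, 1189, 1157 and 910 normalized counts in the controls and 971, 1452, 1522 and 1450 in the knockouts. It differed by 0.27 (SE 0.148, limma adjusted p = 0.748). Floxed control 4 was its lowest control and knockout 5 its lowest knockout, as in 40 of 42 members and 15.7% of all tested genes. The difference was -0.12 for Nrf1 (SE 0.0997), -0.056 for Gabpa (SE 0.0787), and -0.20 for Yy1 (SE 0.0943). It was 0.22 for Ppara (SE 0.271), 0.13 for Ppargc1b (SE 0.611), 0.12 for Tfam (SE 0.0972), 0.023 for Gabpb1 (SE 0.148) and 0.0051 for Ppargc1a (SE 0.143). The 7 pseudogene rows left out of the members had at most 4.84 normalized counts in any library.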
